A study of Mus musculus with 9 samples.

Results

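A set of 10 genes of extracellular nucleotide and adenosine signalling was followed across 3 populations of mouse peritoneal macrophages. The set holds the ectonucleotidases Nt5e and Entpd1, the adenosine receptors Adora2a, Adora2b and Adora3, the ATP-gated channels P2rx4 and P2rx7, and the G protein-coupled nucleotide receptors P2ry6, P2ry12 and P2ry14. The members were chosen by gene symbol, with earlier results of these data known. They are the rows of the count tables whose Ensembl identifier carries one of these symbols in GENCODE release M21. These rows make up 10 of the 47729 gene identifiers counted. RNA-seq read counts were available for 9 libraries, 3 from each population, sorted by flow cytometry from mice that carry Cx3cr1CreERT2-IRES-EYFP/+ and Rosa26-stopfl-tdTomato/+. The first allele places a tamoxifen-inducible Cre recombinase and a yellow fluorescent protein under the Cx3cr1 gene, and the second gives a red reporter only after Cre has acted. Mice of all 3 groups received IL-4 in complex with its antibody (5 µg of the cytokine, 25 µg of the antibody) by injection into the peritoneum on alternate days over the last 4 days before harvest, so that no group stands for macrophages without IL-4. Monocyte-derived macrophages were taken on day 4 after an injection of thioglycollate (2 ml), which irritates the peritoneum and recruits monocytes from blood. Converted macrophages came from mice given 2 ml of thioglycollate and kept on a tamoxifen diet for 10 weeks before harvest, and the labels name no treatment beyond the IL-4 complexes for resident macrophages. The sources used here give no age, sex or sort gate. They do not say whether the 3 libraries of a group are separate mice, and a p-value below therefore measures the spread between libraries, which may be technical.

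ATP and other nucleotides leave stressed or activated cells and act on neighbouring cells as signals. CD39, the product of Entpd1, removes phosphates from extracellular ATP and ADP to give AMP, and CD73, the product of Nt5e, turns AMP into adenosine. P2X receptors are channels that open when ATP binds, P2Y receptors couple ATP, ADP, UTP, UDP or UDP-sugars to G proteins, and adenosine receptors raise or lower cyclic AMP. In macrophages this system is known for ATP-driven inflammasome activation through P2X7 and for the damping of inflammatory responses by adenosine.

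Start regions are shown first for the 2 ectonucleotidases, which were higher in both comparisons with monocyte-derived libraries, and the 2 channels, which were lower. RefSeq windows (GRCm38.p6) of 300 bases, from 250 before to 50 after an annotated start, matched 8 of the 10 members with 13 windows in all. Adora2a had no entry, nor had P2ry6, the member with the largest differences from monocyte-derived libraries. The windows below are written 5′ to 3′ on the strand of the gene, all of them the plus strand, with motif matches in capitals. The first is Nt5e at chr9:88327359-88327658, the second and the third are the annotated starts of Entpd1 at chr19:40612116-40612415 and chr19:40659520-40659819, the next is P2rx4 at chr5:122707294-122707593, and the last are the starts of P2rx7 at chr5:122643677-122643976 and chr5:122650133-122650432.
Nt5e: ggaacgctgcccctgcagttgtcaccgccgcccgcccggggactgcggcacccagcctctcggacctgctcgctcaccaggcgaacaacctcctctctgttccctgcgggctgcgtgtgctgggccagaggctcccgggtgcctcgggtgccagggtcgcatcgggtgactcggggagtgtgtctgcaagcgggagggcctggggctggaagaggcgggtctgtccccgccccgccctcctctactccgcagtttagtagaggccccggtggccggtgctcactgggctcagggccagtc
Entpd1, upstream start: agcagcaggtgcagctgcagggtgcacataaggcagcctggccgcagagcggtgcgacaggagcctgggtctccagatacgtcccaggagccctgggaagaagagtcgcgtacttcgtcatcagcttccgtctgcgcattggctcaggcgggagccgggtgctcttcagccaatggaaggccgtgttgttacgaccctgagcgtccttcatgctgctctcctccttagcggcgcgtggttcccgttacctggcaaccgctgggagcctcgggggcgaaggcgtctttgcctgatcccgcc
Entpd1, downstream start: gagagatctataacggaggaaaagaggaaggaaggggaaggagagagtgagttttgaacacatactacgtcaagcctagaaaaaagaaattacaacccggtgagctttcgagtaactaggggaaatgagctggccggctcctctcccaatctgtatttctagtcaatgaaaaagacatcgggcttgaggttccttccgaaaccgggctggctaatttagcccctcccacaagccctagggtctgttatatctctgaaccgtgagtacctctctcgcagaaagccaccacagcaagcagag
P2rx4: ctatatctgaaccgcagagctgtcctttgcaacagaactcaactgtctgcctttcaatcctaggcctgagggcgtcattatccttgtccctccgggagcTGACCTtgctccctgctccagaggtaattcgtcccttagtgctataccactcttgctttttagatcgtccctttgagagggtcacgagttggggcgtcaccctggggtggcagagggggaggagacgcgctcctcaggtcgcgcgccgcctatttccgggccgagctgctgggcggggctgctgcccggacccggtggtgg
P2rx7, upstream start: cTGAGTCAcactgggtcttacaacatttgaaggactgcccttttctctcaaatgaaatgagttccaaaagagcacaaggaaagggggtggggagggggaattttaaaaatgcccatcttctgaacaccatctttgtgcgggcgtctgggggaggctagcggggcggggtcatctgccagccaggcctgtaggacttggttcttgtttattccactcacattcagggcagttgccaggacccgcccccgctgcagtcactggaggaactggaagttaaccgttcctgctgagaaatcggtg
P2rx7, downstream start: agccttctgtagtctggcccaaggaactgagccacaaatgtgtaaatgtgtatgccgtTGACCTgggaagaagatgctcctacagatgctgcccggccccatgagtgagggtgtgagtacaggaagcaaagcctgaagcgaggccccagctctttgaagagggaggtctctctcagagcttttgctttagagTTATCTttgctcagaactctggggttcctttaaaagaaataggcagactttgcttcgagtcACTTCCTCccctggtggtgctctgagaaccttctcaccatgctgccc

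Guanine and cytosine made up 71% of the Nt5e window, 64% and 48.67% of the windows of Entpd1, 60.33% of the P2rx4 window and 53.33% and 51.67% of the windows of P2rx7, beside a median of 52.67% over 32851 windows of 27025 genes. The ratio of observed to expected CpG, which is high in unmethylated CpG islands, was 0.608 for Nt5e, 0.750 and 0.565 for Entpd1, 0.659 for P2rx4 and 0.380 and 0.200 for P2rx7, beside a median of 0.384. A search on both strands covered 5 short motifs. The AP-1 motif, TGANTCA, occurred in 7.81% of all windows. The GATA motif, AGATAA, occurred in 11.2% of them. The hexamer bound by nuclear receptors, AGGTCA, occurred in 16.3%. The spaced palindrome known for STAT6 occurred in 6.95% and the PU.1 motif GAGGAAGT in 3.20%. The windows of Nt5e, Entpd1 and Adora2b held none of these motifs. The Adora3 window held 1 match each of AP-1, GATA and PU.1, and the P2ry12 window held 1 nuclear receptor hexamer. Of the 4 P2ry14 windows, 1 held no match, 1 held GATA and 1 held AP-1 and GATA. The remaining P2ry14 window held AP-1, GATA and the nuclear receptor hexamer. P2rx4 held 1 nuclear receptor hexamer, read on the minus strand, and upstream P2rx7 held 1 AP-1 motif, which reads as AP-1 on either strand. Downstream P2rx7 held 1 match each of GATA, the nuclear receptor hexamer and PU.1, all read on the minus strand. A match describes letters only, and with several annotated starts the counts do not show which start was used.

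The libraries held 15220884 to 20496258 reads in genes, and a level below is the read count of a gene relative to its library size after TMM correction (CPM). Differences come from a single edgeR quasi-likelihood fit of the 9 libraries; p-values carry a Benjamini-Hochberg adjustment over 13223 tested genes, and a gene is called at an adjusted p under 0.05. The 7 macrophage markers were read in every group, with none at 0. They summed to 3770 to 6366 CPM in monocyte-derived, 6288 to 7776 CPM in converted and 6598 to 6914 CPM in resident libraries. These sums hide opposite moves, with 3 of the 7 called higher and 2 lower in both comparisons with monocyte-derived libraries. Adgre1 was at 224 to 421 CPM in monocyte-derived libraries and at 2672 to 3417 CPM in the others. Lyz2 was at 917 to 2760 CPM in monocyte-derived libraries and at 345 to 780 CPM in the others. Fcgr1, the high-affinity IgG receptor CD64, was at 0.0997 to 0.683 CPM in converted and resident libraries. Monocyte-derived library 1 stood apart from the other 2 of its group for several members, and results that it decides are given with and without it. Xist, a transcript of female cells, was at 41.0 to 101.1 CPM in the monocyte-derived libraries and at most 0.0979 CPM in the others. Ddx3y on the Y chromosome was at 0 in monocyte-derived libraries 1 to 3 and lay between 84.6 and 96.1 CPM in the others. In every comparison with monocyte-derived libraries, the sex of the mice and the recent thioglycollate can therefore not be told apart from the origin of the cells. The labels name the tamoxifen diet for the converted group alone and do not say whether resident mice had tamoxifen or an earlier injection of thioglycollate, so the part of either in differences between converted and resident libraries cannot be told apart from the origin of the cells. In bulk libraries, fewer cells of a type and less RNA per cell cannot be told apart.

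All 10 members passed the filter on low counts. Between converted and monocyte-derived libraries 3 were called higher (Nt5e, Entpd1 and P2ry12) and 5 lower (Adora2a, Adora3, P2rx4, P2rx7 and P2ry6), in a comparison in which 50.7% of all tested genes were called, 25.8% higher and 24.9% lower. Between resident and monocyte-derived libraries the same 3 genes were called higher and P2rx4, P2rx7 and P2ry6 lower, again beside 50.7% of all genes, 25.7% higher and 24.9% lower. Both comparisons use the same monocyte-derived libraries. Between converted and resident libraries 1 member, Adora2a, was called lower and none higher, beside 6.07% of all genes, 1.82% higher and 4.26% lower. The share of all genes called in this comparison was 12% without monocyte-derived library 1, and 1.81% to 3.92% without any 1 of the converted or resident libraries. Of the 9 members not called in that comparison, 2 had an unadjusted p under 0.05. The median log2 difference of the members was -0.82, -0.19 and -0.31 in the 3 comparisons, against -0.01, 0.00 and 0.01 over all genes tested.

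**Figure D1:**
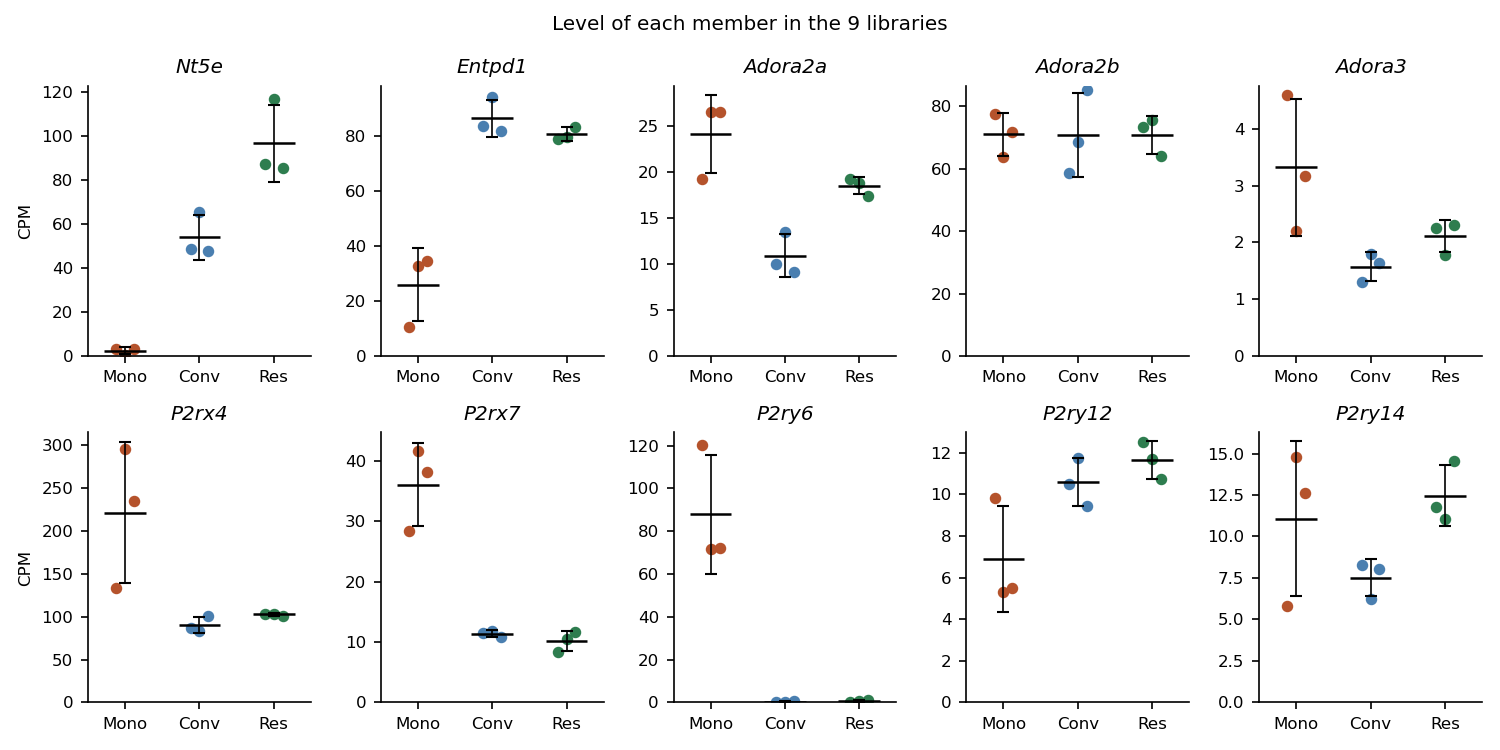
Level of each of the 10 genes in CPM (vertical axes, linear and from 0, with a scale of their own per gene) in the monocyte-derived (Mono), converted (Conv) and resident (Res) libraries; points are libraries 1 to 3 from left to right, bars are means and whiskers are SD (n = 3). P2ry6 lies between 71.8 and 120.2 CPM in monocyte-derived libraries and at most at 1.08 CPM in the others, while the Adora2b points of all 3 groups overlap.

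Nt5e (ENSMUSG00000032420, chr9:88327197-88372092, plus strand) had 3.31, 0.636 and 3.30 CPM in monocyte-derived libraries 1 to 3, 48.6, 65.7 and 47.7 CPM in converted libraries and 87.4, 117.1 and 85.8 CPM in resident libraries. The 3 groups did not overlap, with the resident libraries highest. The level was 22.4-fold higher in converted than in monocyte-derived libraries (log2 4.48 ± 0.40 SE, edgeR adjusted p = 1.66e-05) and 40.0-fold higher in resident ones (5.32 ± 0.41, adjusted p = 6.27e-06). Converted libraries were lower than resident ones by a log2 difference of -0.84 ± 0.31 that was not called (adjusted p = 0.163, 95% interval -1.54 to -0.14). The same difference was called by limma-voom (adjusted p = 0.0424), in a fit of the 2 groups alone (0.0107) and without monocyte-derived library 2 (0.0153), in which 11 reads of the gene were counted.

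Entpd1 (ENSMUSG00000048120, chr19:40612366-40741602, plus strand) had 10.6, 32.7 and 34.7 CPM in monocyte-derived libraries, 83.5, 94.1 and 81.9 CPM in converted libraries and 78.9, 79.8 and 83.5 CPM in resident libraries. All converted and resident libraries lay above all monocyte-derived ones, and converted and resident libraries overlapped. The level was 3.34-fold higher in converted (log2 1.74 ± 0.34 SE, edgeR adjusted p = 0.00217) and 3.12-fold higher in resident libraries (1.64 ± 0.34, adjusted p = 0.00305). Without monocyte-derived library 1, the lowest of its group, the differences were 1.36 and 1.26 and remained called. Between converted and resident libraries the difference was 0.10 (adjusted p = 0.899), with an interval of -0.64 to 0.83.

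Other enzymes that break down nucleotides or NAD, not all of them outside the cell, formed a list of 14 genes, of which 9 were tested. The counts of this list are therefore not counts of extracellular breakdown alone. This and the later lists were chosen with earlier results of these data known, so their counts describe the lists and are no test. Of these 9, 7 were higher and none lower in converted than in monocyte-derived libraries, and 7 were higher and 1 lower in resident ones, with a median log2 difference of 1.07 and 1.21, beside 25.8% higher and 24.9% lower (25.7% and 24.9% in resident libraries) and medians of -0.01 and 0.00 over all genes tested. Enpp4, a phosphodiesterase that can split nucleoside polyphosphates, rose from 1.25 CPM in monocyte-derived to 22.2 CPM in converted libraries (17.6-fold, adjusted p = 1.34e-07) and to 20.1 CPM in resident ones. Cd38, which breaks down NAD, rose from 34.2 to 252.7 CPM (7.4-fold, adjusted p = 4.75e-05) in converted and to 249.0 CPM in resident libraries. Enpp1, which turns ATP into AMP and pyrophosphate, rose from 21.2 to 57.6 CPM in converted libraries (2.72-fold, adjusted p = 0.000486). The 1 lower gene was Entpd7, an intracellular relative of CD39, which fell from 33.3 to 19.4 CPM in resident libraries (1.71-fold, adjusted p = 0.00913). Entpd3, a membrane-bound relative of CD39, was called higher in resident libraries (3.32-fold, adjusted p = 0.0385), but the call was lost in 7 of 17 alternative fits, and leaving out monocyte-derived library 1 moved its log2 difference from 1.73 to 2.79. None of the 9 was called between converted and resident libraries.

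Adora2a encodes the high-affinity adenosine receptor that raises cyclic AMP through Gs. Its transcript (ENSMUSG00000020178, chr10:75316877-75334784, plus strand) had 19.2, 26.5 and 26.5 CPM in monocyte-derived libraries, 10.0, 13.5 and 9.11 CPM in converted libraries and 19.2, 18.8 and 17.4 CPM in resident libraries. The converted libraries lay below all the others, while monocyte-derived library 1 and the resident libraries lay close together. The level was 2.21-fold lower in converted than in monocyte-derived libraries (log2 -1.15 ± 0.18 SE, edgeR adjusted p = 0.000442). The difference between resident and monocyte-derived libraries was -0.38 ± 0.17 and not called (adjusted p = 0.0910), and it was -0.52 and called without monocyte-derived library 1 (adjusted p = 0.0167).

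Adora2a was also the 1 member called between converted and resident libraries, at a level 1.70-fold lower in converted ones (log2 -0.76 ± 0.18 SE, edgeR adjusted p = 0.0348, 95% interval -1.16 to -0.37). This call was lost without converted library 1 (adjusted p = 0.127) or 3 (0.120), and without resident library 1 (0.139), 2 (0.102) or 3 (0.104). It was kept in the other 12 alternatives. The B-cell markers, 18 transcripts, moved in the same direction: they summed to 96.5 to 226.2 CPM in converted and 1384 to 1802 CPM in resident libraries, and 16 of the 18 were called lower in converted libraries. Of 10 tested T-cell markers 7 were also lower there, as were 3 of 7 natural killer cell markers and 2 of 8 dendritic cell markers, and 0 of 7 macrophage markers. None of the B-cell, T-cell or natural killer cell markers had 0 reads throughout either group. The part of other cells in the differences of Adora2a and Nt5e, both of which lymphocytes are known to express, was not tested.

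Adora2b encodes the low-affinity adenosine receptor that also raises cyclic AMP through Gs. Its transcript (ENSMUSG00000018500, chr11:62248984-62266453, plus strand) had 77.6, 63.9 and 71.9 CPM in monocyte-derived libraries, 58.8, 68.6 and 85.2 CPM in converted libraries and 73.3, 75.6 and 64.0 CPM in resident libraries. The 3 groups overlapped, with means of 71.1 ± 6.87, 70.9 ± 13.4 and 71.0 ± 6.12 CPM (SD, n = 3). The log2 differences were -0.01 between converted and monocyte-derived, -0.00 between resident and monocyte-derived and -0.00 between converted and resident libraries (edgeR adjusted p = 0.976, 0.987 and 0.994), and their 95% intervals ran from -0.31 to 0.30 in each case.

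Adora3 encodes the A3 receptor, which couples to Gi and lowers cyclic AMP. Its transcript (ENSMUSG00000000562, chr3:105870858-105908926, plus strand) had 4.59, 2.20 and 3.17 CPM in monocyte-derived libraries, 1.30, 1.79 and 1.63 CPM in converted libraries and 2.26, 1.78 and 2.30 CPM in resident libraries. All converted libraries lay below all monocyte-derived ones, and resident libraries overlapped both. The level was 2.12-fold lower in converted than in monocyte-derived libraries (log2 -1.08 ± 0.31 SE, edgeR adjusted p = 0.0139). That call was lost without monocyte-derived library 1 (adjusted p = 0.05003) and without converted library 1 (0.0558). The resident difference of -0.65 ± 0.30 was not called (adjusted p = 0.0938), and was called without monocyte-derived library 2 (-0.87, adjusted p = 0.0275). Exons of Adora3 share 779 bases, 20.9% of their length, with Tmigd3 on the same strand, which had 4 reads over the 9 libraries. The A1 receptor gene Adora1 had no read in any library.

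Genes that make, import or remove adenosine formed a list of 14, with 11 tested. In converted libraries 6 were higher and 3 lower than in monocyte-derived ones, and in resident libraries 4 were higher and 3 lower, beside 50.7% of all genes called in each comparison, about as many higher as lower. Slc28a2, a concentrative nucleoside transporter, rose from 32.2 to 118.3 CPM in converted libraries (3.68-fold, adjusted p = 0.000166) and to 114.1 CPM in resident ones. Adk, the kinase that turns adenosine back into AMP, rose from 44.3 to 107.5 CPM (2.43-fold, adjusted p = 5.09e-05) and to 78.6 CPM. Slc29a3, an intracellular nucleoside transporter, fell from 105.8 to 44.5 CPM (2.38-fold, adjusted p = 1.30e-06) and to 46.7 CPM. Dpp4, the cell-surface peptidase that binds adenosine deaminase in humans and is abundant on lymphocytes, had 30.2, 7.69 and 17.5 CPM in monocyte-derived, 0.897, 2.31 and 0.788 CPM in converted and 8.47, 9.81 and 9.35 CPM in resident libraries. It was 13.8-fold lower in converted than in monocyte-derived libraries (adjusted p = 0.000327) and 6.87-fold lower than in resident ones (adjusted p = 0.0178). The second call was lost in 7 of 17 alternative fits, and the log2 difference moved from -2.78 to -3.43 without converted library 2. Without the same library its log2 difference from monocyte-derived libraries moved from -3.78 to -4.43.

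P2rx4 encodes P2X4, an ATP-gated channel found largely in lysosomes. Its transcript (ENSMUSG00000029470, chr5:122707544-122729738, plus strand) had 133.1, 295.9 and 234.9 CPM in monocyte-derived libraries, 86.5, 83.6 and 100.6 CPM in converted libraries and 103.5, 103.6 and 101.0 CPM in resident libraries. All monocyte-derived libraries lay above the rest, and converted libraries lay below resident ones by a narrow margin. The level was 2.45-fold lower in converted (log2 -1.29 ± 0.23 SE, edgeR adjusted p = 0.00137) and 2.15-fold lower in resident libraries (-1.11 ± 0.23, adjusted p = 0.00333). Without monocyte-derived library 1, the lowest of its group, the differences were -1.56 and -1.37 and remained called. The converted and resident libraries differed by -0.19 (adjusted p = 0.709, interval -0.71 to 0.33).

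P2rx7 encodes P2X7, the low-affinity ATP channel whose opening drives potassium efflux. Its transcript (ENSMUSG00000029468, chr5:122643911-122691432, plus strand) had 28.3, 41.6 and 38.2 CPM in monocyte-derived libraries, 11.6, 11.8 and 10.8 CPM in converted libraries and 8.31, 10.4 and 11.6 CPM in resident libraries. All monocyte-derived libraries lay above the rest, and converted and resident libraries overlapped. The level was 3.16-fold lower in converted (log2 -1.66 ± 0.17 SE, edgeR adjusted p = 3.10e-05) and 3.56-fold lower in resident libraries (-1.83 ± 0.17, adjusted p = 1.72e-05). The difference between converted and resident libraries was 0.17 (adjusted p = 0.632, interval -0.21 to 0.55). P2rx7 and P2rx4 lie 16.1 kb apart on the same strand of chromosome 5 with no coding gene between them.

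The genes through which P2X7 is known to act on the inflammasome formed a list of 9, all tested, and in both comparisons with monocyte-derived libraries 3 were higher and 3 lower, beside the shares of all genes (25.8% and 25.7% higher, 24.9% lower). The sensor Nlrp3 had 10.2, 2.95 and 2.85 CPM in monocyte-derived libraries and at most 0.0979 CPM, or 2 reads, in any other library. Its fall was called in converted and in resident libraries (adjusted p = 8.12e-05 and 0.000104). The fitted log2 differences of -7.0 and -6.14 rest on few reads and moved to -6.11 and -5.26 without monocyte-derived library 1. Il18, a cytokine released after caspase-1 cleavage, rose from 2.64 to 16.4 CPM in converted libraries (6.26-fold, adjusted p = 2.81e-05) and to 20.7 CPM in resident ones. The cytokine gene Il1b of the same list went the other way. It had 1.60, 3.41 and 8.42 CPM in monocyte-derived libraries and 0.0997 to 0.731 CPM in the others. Casp1 rose from 55.6 to 105.9 CPM (1.91-fold, adjusted p = 0.000128) and the adaptor Pycard from 258.2 to 423.6 CPM (1.64-fold, adjusted p = 0.000174) in converted libraries. None of the 9 was called between converted and resident libraries. Of the 5 tested genes of channels and transporters that release nucleotides, 1 was higher and 1 lower in each comparison with monocyte-derived libraries, beside the same shares of all genes. Calhm2, of a family of large-pore channels, rose from 14.2 to 26.4 CPM in converted libraries (1.87-fold, adjusted p = 6.44e-05) and Gja1, the hemichannel-forming connexin 43, fell from 8.18 to 1.22 CPM (6.66-fold, adjusted p = 0.000233).

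P2ry6 encodes the P2Y6 receptor for UDP, which couples to Gq and is known for its part in phagocytosis by microglia. Its transcript (ENSMUSG00000048779, chr7:100937630-100974649, minus strand) had 120.2, 71.8 and 72.2 CPM in monocyte-derived libraries, 0.349, 0.315 and 0.506 CPM in converted libraries and 0.385, 0.472 and 1.08 CPM in resident libraries. These levels stand for 2253, 1242 and 1115 reads in the first group, 7, 6 and 9 in the second and 7, 9 and 22 in the third. No library of the last 2 groups came near the monocyte-derived level. The fitted level was 224-fold lower in converted (log2 -7.80 ± 0.37 SE, edgeR adjusted p = 2.50e-07) and 133-fold lower in resident libraries (-7.05 ± 0.35, adjusted p = 3.49e-07). Without resident library 3, which held 22 of the resident reads of P2ry6 against 7 and 9 in the others, the resident difference was -7.65. Converted and resident libraries differed by -0.75 ± 0.56 (adjusted p = 0.498, interval -2.0 to 0.50), or by -0.15 without that library.

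P2ry12 encodes the P2Y12 receptor for ADP, which couples to Gi and is a marker of microglia. Its transcript (ENSMUSG00000036353, chr3:59216272-59262871, minus strand) had 9.81, 5.32 and 5.5 CPM in monocyte-derived libraries, 10.5, 11.8 and 9.45 CPM in converted libraries and 12.5, 11.7 and 10.7 CPM in resident libraries. Monocyte-derived library 1 reached the level of the converted libraries, and the resident libraries lay above all monocyte-derived ones. The level was 1.69-fold higher in resident than in monocyte-derived libraries (log2 0.75 ± 0.23 SE, edgeR adjusted p = 0.0203), a call lost without monocyte-derived library 2 (adjusted p = 0.0607) or 3 (0.0598) and without resident library 1 (0.0658) or 2 (0.0524). The converted level was 1.53-fold higher (0.62 ± 0.23, adjusted p = 0.0478), a call lost in the fit of 2 groups (0.0936) and in 8 of the 9 fits that leave out 1 library. The 1 that kept it was the fit without monocyte-derived library 1, with a difference of 0.97 (adjusted p = 0.000680). Converted and resident libraries differed by -0.14 (adjusted p = 0.784, interval -0.64 to 0.37). The platelet marker Pf4 was at 5.01, 57.2 and 36.6 CPM in monocyte-derived libraries and at 221.4 to 344.2 CPM in the others. Each of the other 6 platelet markers was below 1 CPM in every library, and they did not all move in the same direction. Ppbp was at 0.267 to 0.906 CPM in monocyte-derived libraries and at most 0.113 CPM in the others. Itga2b was at 0.173 to 0.388 and at most 0.147 CPM. Tubb1 was at 0 in monocyte-derived libraries and at 0.105 to 0.338 CPM in the others. Pf4 is also known in peritoneal macrophages, and the part of platelets, which carry P2Y12, was not tested.

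P2ry14 encodes the P2Y14 receptor for UDP-glucose and other UDP-sugars, which also couples to Gi. Its transcript (ENSMUSG00000036381, chr3:59113855-59153618, minus strand) had 5.81, 14.8 and 12.6 CPM in monocyte-derived libraries, 8.27, 6.25 and 8.05 CPM in converted libraries and 11.8, 11.1 and 14.5 CPM in resident libraries. Converted libraries lay below all resident ones, and the monocyte-derived libraries overlapped both groups. Neither comparison with monocyte-derived libraries was called (log2 -0.55 ± 0.30 SE and 0.17 ± 0.29, edgeR adjusted p = 0.151 and 0.653). Without monocyte-derived library 1 the converted difference was -0.87 and called (adjusted p = 0.00250), and the resident difference turned to -0.14 (adjusted p = 0.548). Converted libraries were lower than resident ones by -0.73 ± 0.30 (adjusted p = 0.201, interval -1.39 to -0.06), a difference called in the fit of 2 groups (0.0133) and without monocyte-derived library 1 (0.0199). P2ry14 and P2ry12 lie 62.7 kb apart on the same strand of chromosome 3. P2ry13, a further ADP receptor, was at 0.636 to 1.36 CPM in monocyte-derived libraries and at most 0.0997 CPM elsewhere.

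**Figure D2:**
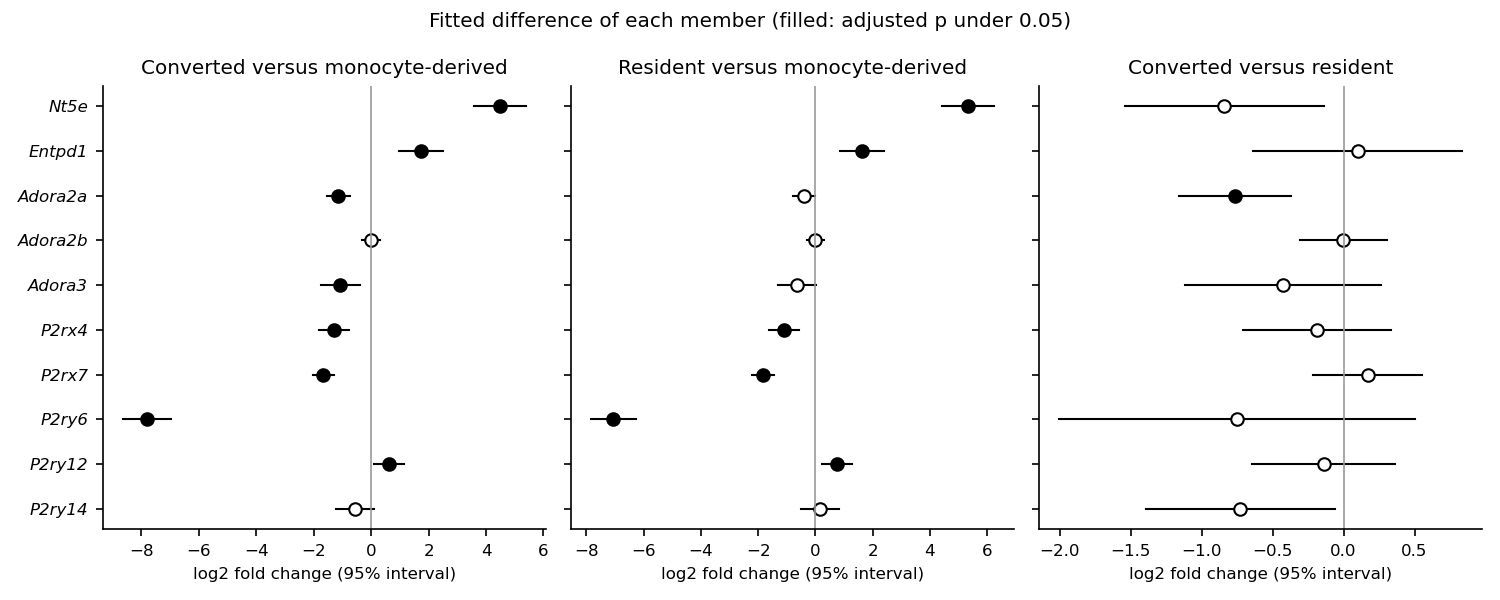
Fitted log2 fold change of each of the 10 genes (points, filled where the adjusted p is under 0.05) with its 95% interval (lines) in the 3 comparisons; each panel has its own horizontal scale. Intervals around Adora2b run from -0.31 to 0.30 in all 3 panels, and Adora2a carries the 1 filled point between converted and resident libraries, at -0.76.

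Counted by the libraries alone, 2 members lay wholly above and 5 wholly below the monocyte-derived range in converted libraries, beside 56.3% of all genes with groups that do not overlap (28.6% above and 27.7% below). In resident libraries 3 lay above and 4 below, beside 59.5% of all genes (30.6% above and 28.9% below). Between converted and resident libraries 4 members lay below (Nt5e, Adora2a, P2rx4 and P2ry14) and none above, beside 37.3% of all genes (19.6% above and 17.7% below).

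The remaining receptors of nucleotides and related ligands formed a list of 16 with 8 tested, of which 1 was higher and 6 were lower in converted than in monocyte-derived libraries, and 2 were higher and 5 lower in resident ones, beside 25.8% and 25.7% of all genes higher and 24.9% lower. P2ry2, the receptor for ATP and UTP that couples to Gq, had 18.8, 30.5 and 21.9 CPM in monocyte-derived libraries, 78.5, 74.1 and 92.8 CPM in converted libraries and 64.0, 81.1 and 66.6 CPM in resident libraries. Its level rose 3.44-fold in converted (adjusted p = 2.66e-05) and 2.97-fold in resident libraries (adjusted p = 6.02e-05). P2ry1, an ADP receptor that couples to Gq, fell from 76.1 CPM to 35.3 CPM in converted libraries (2.16-fold, adjusted p = 0.000178) and to 31.0 CPM in resident ones (2.46-fold, adjusted p = 6.91e-05). P2ry10, a lysophospholipid receptor abundant in lymphocytes, had 0.797, 1.31 and 1.46 CPM in converted and 6.33, 7.50 and 9.06 CPM in resident libraries, a 6.41-fold difference (adjusted p = 0.00219). Gpr171, an orphan receptor of the P2Y-like group, was at 0.299 to 0.735 CPM in converted and 3.25 to 4.41 CPM in resident libraries and was the other gene of this list called lower in converted ones (log2 -2.89, adjusted p = 0.00799). Between these 2 groups both moved in the direction of the lymphocyte markers given above, whose part in these differences was not tested. In monocyte-derived libraries P2ry10 had 4.27, 2.31 and 4.08 CPM and Gpr171 had 11.9, 4.34 and 11.7 CPM. Gpr171 was called lower than there in converted (18.6-fold, edgeR adjusted p = 5.18e-05) and in resident libraries (2.51-fold, adjusted p = 0.0140). The resident call of Gpr171 was lost in 2 of 17 alternative fits. P2ry10 was called higher in resident than in monocyte-derived libraries (2.15-fold, adjusted p = 0.00905).

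To compare receptors with each other, levels were divided by the length of their annotated exons (CPM per kb). These shares of a family were chosen as a measure after the data had been seen and carry no test. They also depend on the length used. With the longest transcript in place of all exons, 20 group means of a share moved by more than their SD and 34 did not. Among 7 nucleotide P2Y receptors, P2ry6 made up 62.9%, 45.3% and 46.3% of the summed CPM per kb in monocyte-derived libraries, 0.379%, 0.337% and 0.463% in converted libraries and 0.448%, 0.475% and 1.28% in resident libraries. P2ry2 made up 7.25%, 14.2% and 10.3% in monocyte-derived libraries, 62.7%, 58.3% and 62.4% in converted libraries and 54.8%, 60.0% and 58.0% in resident libraries. The UDP receptor thus held the leading share in every monocyte-derived library and the ATP and UTP receptor in every other. P2ry1 made up 30.9% ± 7.17, 24.1% ± 2.21 and 23.2% ± 1.45 (SD, n = 3), P2ry12 rose from 4.54% ± 1.11 to 12.3% ± 2.29 and 14.8% ± 1.64, and the family summed to 58.4 ± 6.78, 34.1 ± 3.31 and 31.1 ± 2.86 CPM per kb.

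Among the 4 adenosine receptors, Adora2b led in every group, with 81.4% ± 3.10, 90.4% ± 2.43 and 85.3% ± 0.746 of the summed CPM per kb in monocyte-derived, converted and resident libraries (SD, n = 3). Adora2a made up 16.8% ± 3.68, 8.57% ± 2.31 and 13.4% ± 0.496, and Adora3 1.86% ± 0.578, 1.0% ± 0.129 and 1.27% ± 0.251. Among the 7 P2X receptors, P2rx4 led with 65.5% ± 4.75, 60.7% ± 9.73 and 56.8% ± 1.77, followed by P2rx1 with 19.3% ± 4.02, 30.0% ± 11.03 and 36.3% ± 2.51 and P2rx7 with 13.2% ± 2.32, 9.05% ± 1.57 and 6.60% ± 1.24. P2rx1, an ATP channel known from platelets and smooth muscle, was not called in any comparison (log2 -0.48, 0.02 and -0.50, adjusted p = 0.314, 0.976 and 0.503). The summed P2X level was 47.7 ± 15.6, 21.4 ± 3.16 and 25.8 ± 0.808 CPM per kb.

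**Figure D3:**
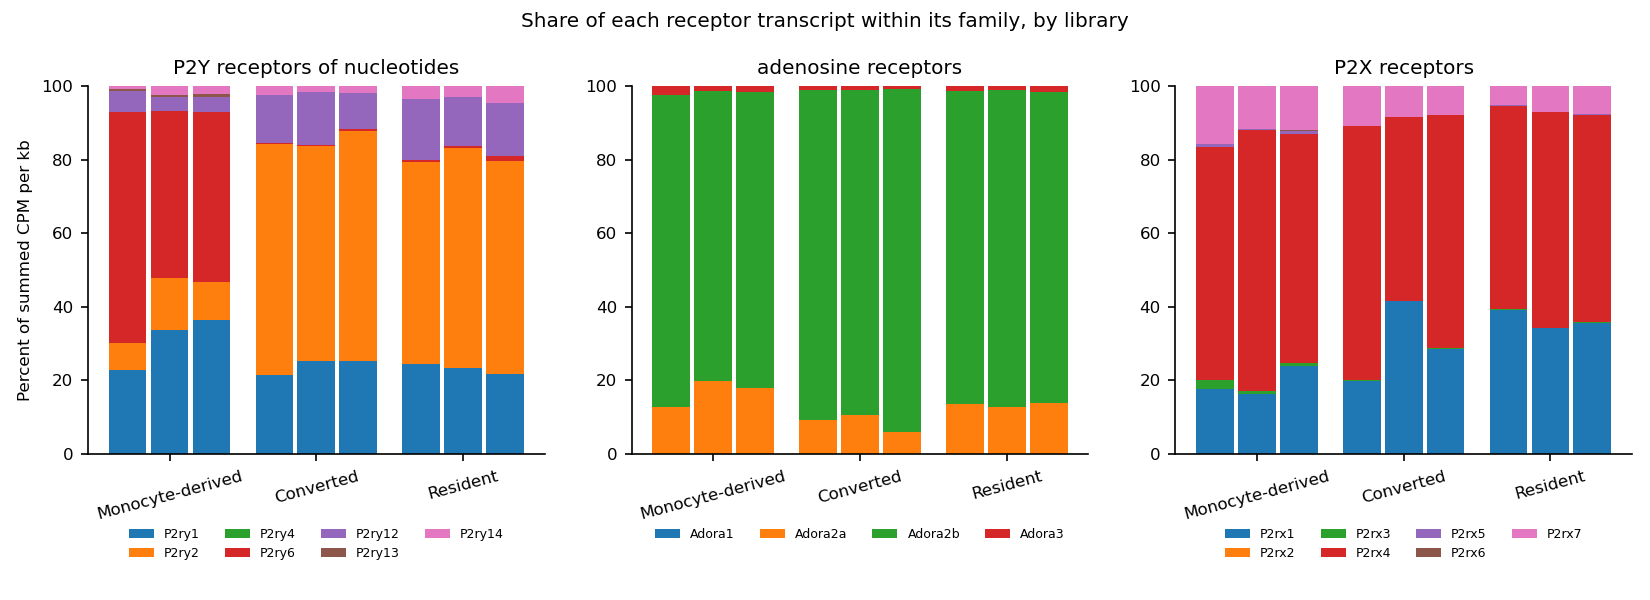
Percent of the summed CPM per kb of each receptor family (vertical axis) held by each receptor transcript in the 9 libraries, with a bar for each of libraries 1 to 3 of the monocyte-derived, converted and resident groups. P2ry6 holds 45.3% to 62.9% of the P2Y sum in the monocyte-derived bars and at most 1.28% in the others, where P2ry2 holds 54.8% to 62.7%.

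Over the 10 members, the order of levels per kb in monocyte-derived libraries began with Adora2b (38.5 ± 3.72 CPM per kb, SD, n = 3), P2rx4 (31.5 ± 11.7) and P2ry6 (30.5 ± 9.63), whose libraries overlapped. Adora2a, P2rx7, Entpd1 and P2ry12 followed, at 7.87, 6.04, 4.66 and 2.70 CPM per kb, each overlapping the next. P2ry14 (1.0), Adora3 (0.890) and Nt5e (0.281) were lowest. In converted libraries Adora2b (38.4) was followed by Entpd1 (15.5 ± 1.19), P2rx4 (12.8 ± 1.29) and Nt5e (6.28 ± 1.18), then P2ry12 (4.16) and Adora2a (3.55), which overlapped, and P2rx7 (1.91), P2ry14 (0.680), Adora3 (0.421) and P2ry6 (0.135). In resident libraries Adora2b (38.5) was followed by P2rx4 (14.6 ± 0.210) and Entpd1 (14.5 ± 0.433), which overlapped, and by Nt5e (11.2 ± 2.05), with P2ry6 again last (0.223). By exon length Nt5e stood last of 10 in monocyte-derived libraries and at rank 4 in both other groups. With the length of the longest transcript in place of all exons, P2rx4 led in monocyte-derived libraries at 56.8 CPM per kb, before P2ry6 at 45.2 and Adora2b at 38.5, and stood above Entpd1 in converted libraries (23.2 against 20.5). In resident libraries Nt5e then stood above Entpd1, at rank 3 (24.2 against 19.1).

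Downstream of the receptors, 15 genes of the cyclic AMP arm were tested, with 4 higher and 6 lower in each comparison with monocyte-derived libraries. Of all genes, 25.8% and 25.7% were higher and 24.9% lower in these comparisons. Adcy7, an adenylyl cyclase common in blood cells, fell from 160.6 CPM to 35.7 CPM in converted libraries (4.498-fold, adjusted p = 4.17e-07) and to 47.9 CPM in resident ones (3.35-fold, adjusted p = 1.82e-06). Crem, a regulator of cyclic AMP-responsive transcription, fell from 17.2 CPM to 8.59 CPM in converted libraries (1.99-fold, adjusted p = 0.00752) and to 8.48 CPM in resident ones. Pde3b, a phosphodiesterase that removes cyclic AMP, rose from 36.5 to 63.5 CPM in converted libraries (1.74-fold, adjusted p = 0.00498). Of 13 tested genes of the other G proteins and the calcium arm, 8 were higher and 1 lower in each of these comparisons, with a median log2 difference of 0.70 and 0.64, beside 25.8% and 25.7% of all genes higher, 24.9% lower and medians of -0.01 and 0.00. Itpr1, a calcium release channel of the endoplasmic reticulum, rose from 15.5 to 48.0 CPM in converted libraries (3.10-fold, adjusted p = 0.000146) and to 55.7 CPM in resident ones. Plcb2, a phospholipase C that Gq-coupled receptors activate, rose from 24.9 to 47.0 CPM (1.89-fold, adjusted p = 0.000361), and Gna13 fell from 135.6 to 103.9 CPM (1.31-fold, adjusted p = 0.00178).

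Over all 7 lists, 92 genes were listed, 91 were matched in the count tables and 70 were tested. In converted libraries 30 were higher and 20 lower than in monocyte-derived ones, and in resident libraries 29 were higher and 20 lower. The shares over all genes were 25.8% higher and 24.9% lower in converted and 25.7% and 24.9% in resident libraries. Between converted and resident libraries none of the 70 was called higher by edgeR, with 12 of the 70 at an unadjusted p under 0.05, while DESeq2 called 3 higher. The 4 called lower were Dpp4, Slc29a4, P2ry10 and Gpr171, of which Slc29a4, a transporter of adenosine and monoamines, lost its call (adjusted p = 0.0237) in 7 of 16 alternative fits. In lists with no call there, the most abundant genes included Cd38 (252.7 CPM in converted and 249.0 in resident libraries, log2 0.02, adjusted p = 0.976) and Pycard (423.6 and 410.4 CPM, 0.05, adjusted p = 0.832). Prkar1a, a regulatory subunit of the cyclic AMP-dependent kinase and the most abundant gene of its list, had 508.2, 459.5 and 474.8 CPM in converted and 377.9, 421.6 and 399.8 CPM in resident libraries, which did not overlap. Its log2 difference of 0.27 was not called (adjusted p = 0.0846), but was called by DESeq2 (0.0173), in the fit of 2 groups (0.0364) and without monocyte-derived library 1 (0.0289). Several calls against monocyte-derived libraries were close to the threshold. In converted libraries these were Slc29a1 (adjusted p = 0.0467), P2ry10b (0.0377) and Kcnk13 (0.0493), whose calls were lost in 11, 7 and 12 of 17 alternative fits. In resident libraries Slc29a2 (adjusted p = 0.0407) lost its call in 13.

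**Figure D4:**
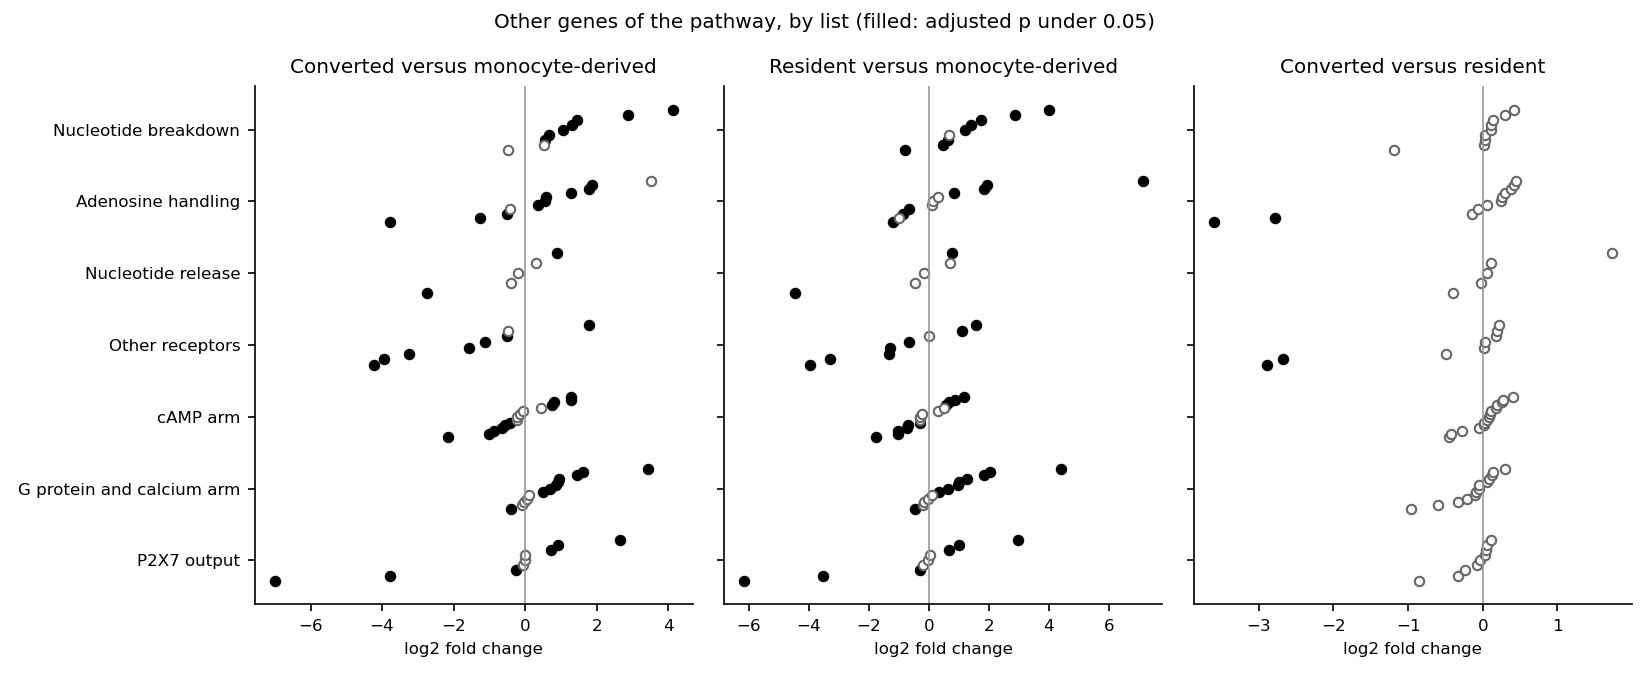
Log2 fold change of each tested gene of the 7 lists (points, filled where the adjusted p is under 0.05), by list from top to bottom, in the 3 comparisons; each panel has its own horizontal scale. In the breakdown list 7 of 9 points are filled to the right of 0 in both comparisons with monocyte-derived libraries, and between converted and resident libraries 4 of the 70 points are filled, all to the left.

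The genes whose pattern over the 9 libraries was most like that of each member were found by the root-mean-square difference of centred log2 CPM among 11405 coding genes. Nt5e was closest to Itga7 (0.435), the laminin-binding integrin alpha 7, then to Fgf9 (0.552) and Bank1 (0.574). Itga7 and Fgf9 were near 0 in monocyte-derived libraries, at means of 0.0965 and 0.0825 CPM. Bank1 had means of 2.13, 40.2 and 83.1 CPM in monocyte-derived, converted and resident libraries. The B-cell markers were also higher in resident than in converted libraries, as given above, and their part in this likeness was not tested. P2ry6 was closest to Gpr141 (0.545), Ramp1 (0.609) and Ocstamp (0.615). Entpd1 was closest to Rarb (0.134), the retinoic acid receptor beta, then to Blvrb (0.155), a biliverdin reductase, and Cdc20 (0.168). P2rx4 was closest to Renbp (0.116) and Uap1l1 (0.128), and P2rx7 to Endod1 (0.156) and Gpr35 (0.158). The nearest genes were Ifi207 for Adora2a (0.103), Fam13b for Adora2b (0.098), Foxn3 for Adora3 (0.075), Unc13d for P2ry12 (0.115) and March9 for P2ry14 (0.176). A small value is easier to reach for a gene that varies little, so these values order the neighbours of 1 gene and not the members.

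Markers of other cell types also differed between the monocyte-derived libraries and the rest. Neutrophil markers summed to 84.3 ± 23.1 CPM (SD, n = 3) in monocyte-derived libraries, to 14.4 ± 5.05 in converted ones and to 17.8 ± 0.557 in resident ones, with Ly6g, the marker that defines neutrophils, at no more than 0.715 CPM in any library. Of the 10 neutrophil markers, 4 were at 0 in all converted and 2 in all resident libraries. Ly6g did not pass the filter on low counts, and 6 other neutrophil markers were tested. Each of these 6 was called lower than in monocyte-derived libraries, for both other populations. Among them, S100a9 was at 6.03 to 24.3 CPM in monocyte-derived libraries and at most 0.0550 CPM elsewhere. Csf3r was at 36.8 to 77.3 CPM against 8.42 to 18.3 CPM. Dendritic cell markers summed to 343.3 ± 46.4, 64.0 ± 27.4 and 195.7 ± 9.86 CPM, with opposite moves within the list: Itgax fell from 176.9 to 246.9 CPM in monocyte-derived libraries to at most 2.09 CPM elsewhere, while Cd209a was at 7.63 to 36.9 CPM in monocyte-derived and 160.3 to 178.1 CPM in resident libraries. Of the 8 tested dendritic cell markers 6 were lower in converted libraries, and in resident ones 1 was higher and 5 lower. Natural killer cell markers summed to 62.0 ± 61.0, 2.48 ± 0.684 and 23.5 ± 5.42 CPM. The first mean rests largely on library 3, with 23.0, 30.8 and 132.3 CPM in monocyte-derived libraries 1 to 3. The resident libraries had 18.3 to 29.1 CPM. Of 7 tested natural killer cell markers, 7 were called lower in converted and 3 in resident libraries than in monocyte-derived ones. B-cell markers summed to 46.5 to 100.04 CPM in monocyte-derived libraries, below the resident range given above. Of the 18 B-cell markers, 11 were called higher in converted and 17 in resident than in monocyte-derived libraries, and none lower. T-cell markers summed to 73.6 ± 42.4, 9.40 ± 3.15 and 49.0 ± 9.28 CPM, with Il7r alone at 17.3 to 86.2 CPM in monocyte-derived libraries. Of 10 tested T-cell markers, 2 were called lower and none higher in converted libraries. In resident libraries 6 were higher and 1 lower. The part of these cells in the differences of the 10 genes from monocyte-derived libraries was not tested.

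**Figure D5:**
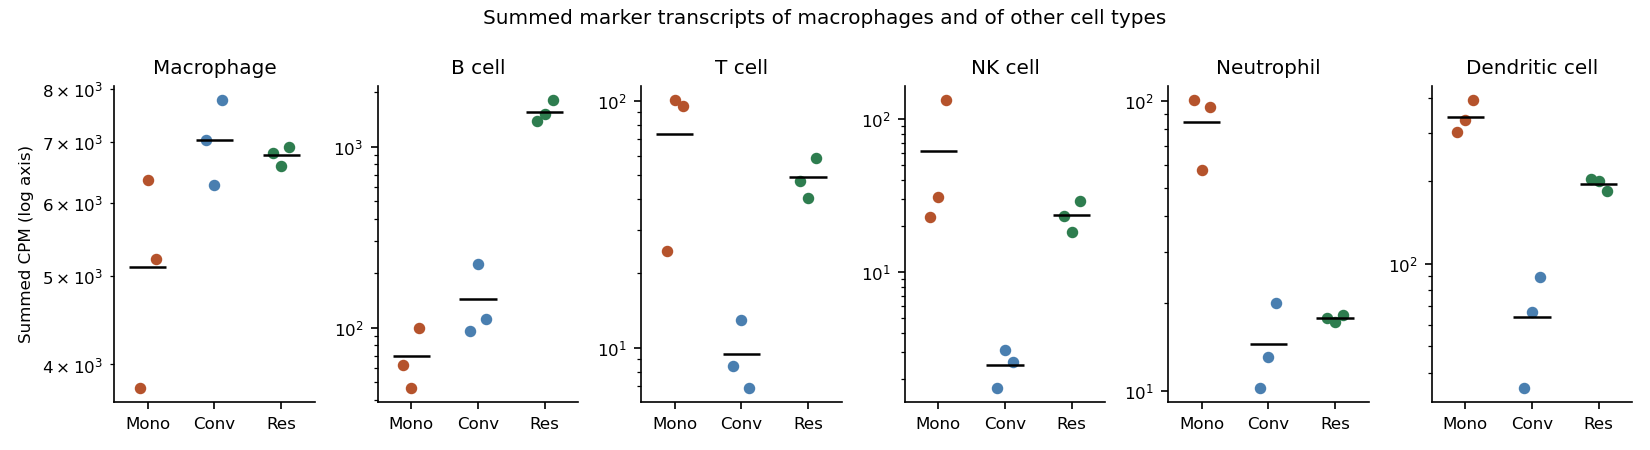
Summed CPM of the marker transcripts of macrophages and 5 other cell types (vertical axes, log scale, with a scale of their own per panel) in the monocyte-derived (Mono), converted (Conv) and resident (Res) libraries; points are libraries 1 to 3 and bars are means. B-cell markers lie at 1384 to 1802 CPM in resident libraries and at 96.5 to 226.2 CPM in converted ones.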

How the data were processed

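RNA of sorted macrophages was purified with RNeasy columns and made into TotalScript libraries, per the labels' protocols. The values the authors deposited are raw counts of reads per gene. The submitters' processing notes name TopHat2 2.1.0, HTSeq and GRCm38, and the sources used here give no annotation, strand setting or counting mode, so reads of overlapping or antisense genes cannot be told apart. ATAC-seq, which the design text names, was not analysed here. Of 47729 identifiers, 47224 matched GENCODE M21. Lines that name no gene (no feature, 4.02% to 5.66%; ambiguous, 4.47% to 4.68%) stayed out of library sizes. Counts were filtered (filterByExpr, minimum count 10, minimum total 15), scaled by TMM and tested with edgeR 4.0.16 (R 4.3.3, robust quasi-likelihood, 9 libraries, 6 residual degrees of freedom), after a test on simulated data. Changed genes were few in the simulated data, which therefore could not check scaling or error rates under changes as wide as those here. Levels per kb use exon lengths of M21. Alternatives were DESeq2 1.42.0, limma-voom (limma 3.58.1), other scalings and filters, a block for the replicate number, fits of 2 groups and leaving out each library. Receptor shares were added after seeing the data. Members and lists were chosen with earlier results of these data known. Named pathway genes are up to 3 called genes per list, comparison and direction with the largest change and at least 5 CPM. Where none was called, the highest expressed gene is named. P2ry13, Gpr171 in the last comparison, P2rx1, Il1b and Slc29a4 were named after their values were seen.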

Additional observations from a re-analysis of the deposited data

How the results depend on the processing

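Calls of Nt5e and Entpd1 (higher) and of P2rx4, P2rx7 and P2ry6 (lower) against monocyte-derived libraries held in all alternatives run, in converted and in resident libraries. Between converted and resident libraries the count of members called lower, 1 at first, was 2 by limma-voom, 3 in the fit of 2 groups, which called 16.2% of all genes, and 0 to 2 when 1 library was left out. The count of pathway genes called higher, 0 at first, was 3 by DESeq2, 2 with no filter, 6 in the fit of 2 groups and 0 to 5 when 1 library was left out, and the count called lower, 4 at first, was 2 to 5 when 1 library was left out and 3 to 6 in the other alternatives. The sign of Adora2b, which lay at 0, turned in converted against monocyte-derived libraries under upper-quartile scaling (0.0113), with no filter (0.0269) and with 2 groups (0.0096). It turned in resident ones under DESeq2 (0.0045), DESeq2 size factors (0.0045), upper-quartile scaling (0.0606), no filter (0.0202), the strict filter (0.0041) and with 2 groups (0.0009), and between converted and resident libraries with no filter (0.0067). Left-out libraries moved Adora2b between -0.1528 and 0.1186, between -0.0605 and 0.0715 and between -0.1537 and 0.1181, and P2ry14 in resident against monocyte-derived libraries between -0.1392 and 0.4615 and P2rx1 there between -0.2654 and 0.32. Between converted and resident libraries Cd38 turned by limma-voom (-0.0362), upper-quartile scaling (-0.0262) and the replicate block (-0.0115), with -0.2336 to 0.2544 when libraries were left out, and Pycard under upper-quartile scaling (-0.0019), with -0.016 to 0.0968; the cause was not tested. Upper-quartile scaling moved the split of all called genes in that comparison from 240 higher and 563 lower to 133 and 606. It was 527 and 837 by DESeq2, 900 and 1167 in the fit of 2 groups, 751 and 877 without monocyte-derived library 1, and 24 and 221 without resident library 3. In the check of pairing, libraries with the same number correlated by -0.094 to 0.065 over 9 pairs, none above 0.1. Monocyte-derived library 2 and converted library 1, which differ in number, reached 0.106. With 3 libraries per group, this check could not settle whether libraries with the same number are linked. With the replicate number as a block the calls over all genes between converted and resident libraries were 115 higher and 415 lower, Adora2a was at -0.78 (adjusted p = 0.0479), and no call of a member changed. P2ry6 had too few reads for a 2-group value between converted and resident libraries. Reads were few for P2ry6 outside monocyte-derived libraries, for Adora3 and for Nlrp3, which limits their differences between converted and resident libraries.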
